A study of Drosophila melanogaster with 24 samples.

Results

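The cell death genes described here are 8 genes of the apoptosis pathway of the fly, namely *rpr*, *hid*, *skl*, *th*, *p53*, *Dark*, *Ice* and *Dcp-1*, chosen by name from the 12506 genes that appear in at least 1 of 4 tables of gene expression. The flies were males of *w1118*, a white-eyed laboratory line, and each of 24 mRNA libraries was made from whole flies. Ages ran from 0 to 7 days in the younger flies and from 20 to 27 days in the older ones. Injured flies were struck repeatedly in the HIT (high impact trauma) device and uninjured flies were not. All flies then had water for 2 hr or molasses food for 4 hr before RNA was extracted, so diet and time cannot be told apart in any comparison of food with water. Age and diet make 4 conditions, called younger water, older water, younger food and older food. Each holds 6 libraries, 3 of injured flies and 3 of flies that were not injured.

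In apoptosis, a cell takes itself apart with caspases, proteases that are made as inactive precursors. In flies, the inhibitor of apoptosis (IAP) protein DIAP1, encoded by *th* (*thread*), binds caspases and holds them in check in living cells. Reaper (*rpr*), Head involution defective (*hid*) and Sickle (*skl*) bind DIAP1 and release the caspases, and their transcription is a main point at which death signals are read. *p53* encodes a transcription factor that switches on such genes after DNA damage. *Dark* encodes the adaptor on which the initiator caspase Dronc is activated, and *Ice* and *Dcp-1* encode effector caspases that cut the proteins of the dying cell.

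The value given for each gene is its mean level in a condition, written as log2 CPM, the log2 of a read count scaled to the library's total, and it is the authors' mean over the injured and uninjured libraries together. A step of 1 on this scale is a 2-fold step. The mean levels do not show what injury did to a gene, since injured and uninjured flies are averaged, and no injury effect is reported here. A difference between ages or diets in these means may hold a response to injury that differs between conditions, and the one cannot be told apart from the other. With 1 value per condition there is no spread between replicates, so no comparison below carries an error or a test. The depth of each library is unknown. Each table was normalized on its own, so levels set side by side across conditions share that limit. In whole flies, fewer cells that express a gene and less RNA per cell cannot be told apart.

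Of the 8 genes, 7 were listed in all 4 tables and 1, *rpr*, in 3, which makes 31 of 32 possible entries. *hid* is listed under its older name *W* and *Dark* under *Ark*. *rpr* was not listed in older food. Genes with low or empty values were filtered out by the authors at a threshold not given in the sources used here. The lowest level left in older food was 0.03. In older water *rpr* stood at 0.19, higher than only 0.274% of the genes in that table. In all, 11457 genes were listed in all 4 tables.

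The sex markers in the tables fit male flies only in part, and markers of some tissues differed between the ages. All 5 male markers (*roX1*, *roX2*, *Acp70A*, *Acp36DE* and *Mst98Cb*) were listed in each table, and the female markers *osk* and *Cp36* in none. The male markers summed to 2962 and 3667 CPM in younger flies on water and food, and to 1382 and 1594 in older flies. *Acp36DE* made up most of each sum, and the 5 markers did not move together. *Acp36DE*, *Acp70A* and *Mst98Cb* were lower in older than in younger flies on both diets. *roX1* was higher in older flies (0.40 on water and 0.72 on food on the log2 scale), as was *roX2* (0.37 and 0.19). The yolk protein genes *Yp1*, *Yp2* and *Yp3*, known for their expression in females, were all listed in younger food, where the 5 female markers summed to 149 CPM, against 12.6 in younger water and 34.5 and 15.6 in older flies on water and food. The muscle markers *Act88F* and *Mhc* summed to 12611 and 19592 CPM in younger flies on water and food, but to 3237 and 2616 in older flies. The gut marker *Jon99Cii* stood at 1054 and 1115 CPM in younger flies on water and food, but at 76.9 and 181 in older flies. The neuron markers *elav* and *nSyb* stayed between 287 and 303 in the 4 tables. The fat body markers *Lsp2* and *Fbp1* were both listed in the 2 younger tables, *Lsp2* alone in older water and neither in older food.

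**Figure D1:**
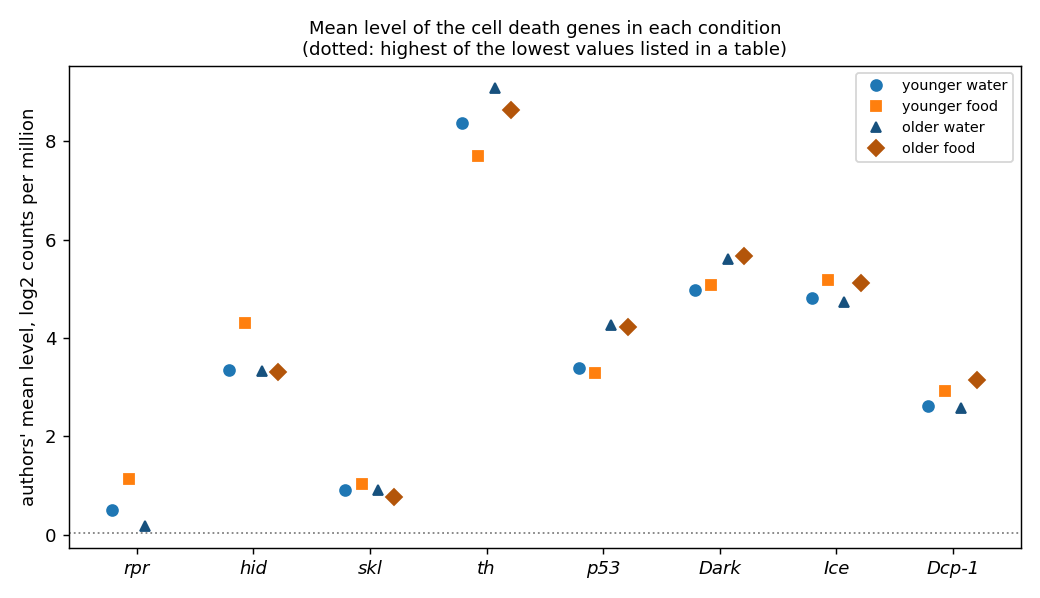
Mean level of each of the 8 genes (log2 CPM, y axis) in the 4 conditions, 1 point per condition over 6 libraries. *th* lies between 7.70 and 9.09, *rpr* and *skl* lie at or below 1.13, and *rpr* has no point in older food.

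*th* was among the highest genes of each table. In younger flies its mean level was 8.38 on water and 7.70 on food, above 95.6% and 93.0% of the genes listed. In older flies it was 9.09 and 8.63, above 97.3% and 96.4%. The order of conditions was the same at both ages, with *th* lower on food than on water, and the same on both diets, with *th* higher in older than in younger flies. Its range over the conditions, 1.39, was the widest of the 7 genes listed in all tables, and 78.3% of all genes listed in all tables had a smaller range.

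The antagonists of DIAP1 stood lower in the tables. *hid* had a mean level of 3.36 on water and 4.30 on food in younger flies, and 3.32 and 3.31 in older flies. It thus stood at nearly the same level in 3 conditions and was higher in younger food, where it lay above 44.4% of the genes listed. *rpr* followed the same order where it was listed, with 1.13 in younger food, 0.50 in younger water and 0.19 in older water. *skl* had 0.91 and 1.03 in younger flies on water and food and 0.90 and 0.78 in older flies, the narrowest range (0.25) of the 7 genes. Both *rpr* and *skl* were among the lowest genes of the tables, above at most 4.88% of the genes in any of them.

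*p53* split by age. Its mean level was 3.39 on water and 3.30 on food in younger flies, against 4.27 and 4.22 in older flies, so both older values lay above both younger ones. *Dark* showed the same split with a smaller step, at 4.97 and 5.08 in younger flies against 5.60 and 5.66 in older flies.

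The effector caspase genes *Ice* and *Dcp-1* split by diet instead. On food *Ice* had a mean level of 5.18 in younger and 5.12 in older flies, against 4.82 and 4.74 on water. *Dcp-1* had 2.92 and 3.14 on food, against 2.62 and 2.59 on water. For both genes every food value was above every water value, and the flies on food were also the ones taken at 4 hr. Of all genes, 55.6% in younger and 66.4% in older flies were higher on food than on water. The further effector caspase genes *Damm* and *Decay* were lower on food in younger flies (-0.60 and -0.38) and higher in older flies (0.045 and 0.50).

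Levels of different genes can be compared once they are divided by transcript length, here the longest annotated transcript. Per kilobase, *th* stood highest in each condition, at 90.0 to 236 CPM, followed by *Ice* at 13.8 to 18.7 and *Dark* at 6.41 to 10.3. *p53* (4.69 to 9.20), *Dcp-1* (3.43 to 5.03) and *hid* (2.46 to 4.90) came next and changed places between conditions. On this scale *hid* stood above *p53* and *Dcp-1* in younger food and below both in the other 3 conditions. *skl* (1.24 to 1.48) and *rpr* (1.26 to 2.42) were lowest, with *rpr* above *skl* in both younger tables and below it in older water. The order of *hid* and *Dcp-1* depends on the length, since with the shortest transcript of *hid* (2190 in place of 4018 bases) *hid* stood above *Dcp-1* in each condition except older food.

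The ratio of 2 genes within a table does not depend on how the table was scaled. The log2 ratio of *th* to *hid* was 5.02 on water and 3.40 on food in younger flies, and 5.77 and 5.32 in older flies. Its spread of 2.37 over the conditions was the widest of the 21 pairs that the 7 genes form, whose median spread was 0.96. The mRNA of the inhibitor relative to that of this antagonist was thus lowest in younger food and highest in older water. The log2 ratio of *p53* to *hid* changed sign, from -1.01 in younger food to 0.95 in older water and 0.92 in older food, with 0.03 in younger water.

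Other pairs kept their ratio. *Ice* and *Dcp-1* had log2 ratios of 2.20 and 2.26 in younger flies on water and food and 2.15 and 1.98 in older flies, and their spread of 0.27 was the narrowest of the 21 pairs. *Dark* and *p53* came next, with a spread of 0.45 between 1.33 in older water and 1.78 in younger food. The log2 ratio of *th* to *Ice* moved more, from 2.52 in younger food to 4.35 in older water.

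**Figure D2:**
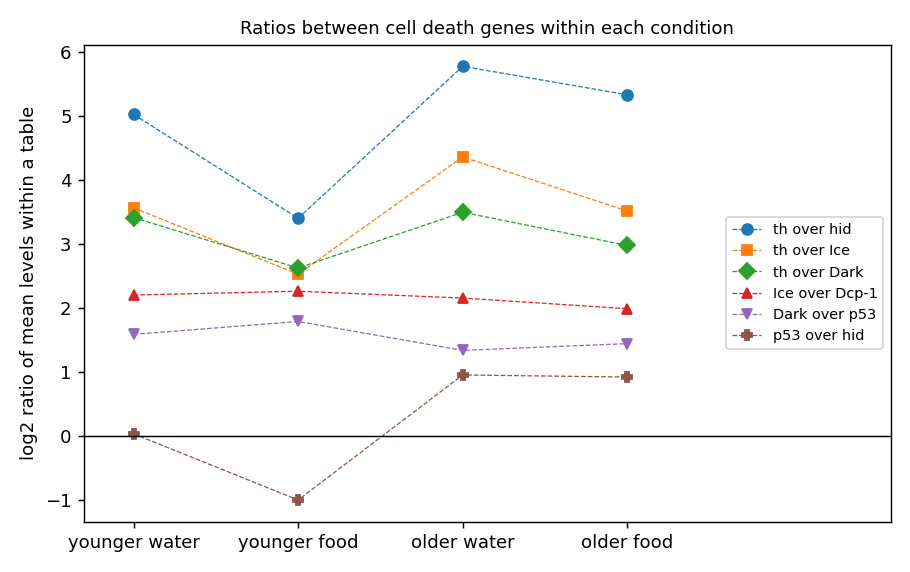
Log2 ratio of the mean levels of 6 pairs of cell death genes within each table (y axis), by condition (x axis); dashed lines only join the points of a pair. The ratio of *th* to *hid* ranges from 3.40 to 5.77, while that of *Ice* to *Dcp-1* stays between 1.98 and 2.26.

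Older flies were set against younger flies on the same diet. A gene was counted as past the limit when its mean levels differed by more than 1 on the log2 scale, which 21.4% of 11531 genes did on water and 24.1% of 11806 genes on food. None of the 8 genes passed on water and none of the 7 listed in both tables on food. At a limit of 1.5-fold, 3 of 8 passed on water and 3 of 7 on food, against 37.4% and 43.9% of all genes, so these shares lie near the background. The genes past 1.5-fold on water were *p53* (0.88 higher in older flies), *th* (0.71) and *Dark* (0.63).

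On food, *p53* (0.93 higher) and *th* (0.93) passed 1.5-fold again, and *Dark* (0.58) stood just inside the limit. *hid* was lower in older than in younger flies on food (-0.995), just inside the limit of 2-fold, and almost equal on water (-0.04). The median difference was -0.02 on water and 0.22 on food for these genes, beside 0.09 and 0.16 for all genes listed in both tables.

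The direction of the age difference rests on the scaling for part of the genes. The control genes *RpL32*, *Act5C*, *alphaTub84B* and *eIF-4a* are often used as references. *alphaTub84B* ranged over 0.14, but *RpL32* ranged over 1.33, *Act5C* over 1.70 and *eIF-4a* over 0.88. All but *alphaTub84B* had the order of conditions that *th* has, so centering on these controls takes away part of any difference with that order. When each table was centered on the mean of these 4 genes, all genes shifted by -0.48 on water and -0.73 on food. The difference of *th* then came to 0.24 on water and 0.21 on food, and that of *p53* to 0.40 and 0.20. *Dark* changed sign on food, to -0.15, and *hid* came to -1.72. When the tables were centered on the median gene, *p53* passed the limit of 2-fold on water (1.07).

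**Figure D3:**
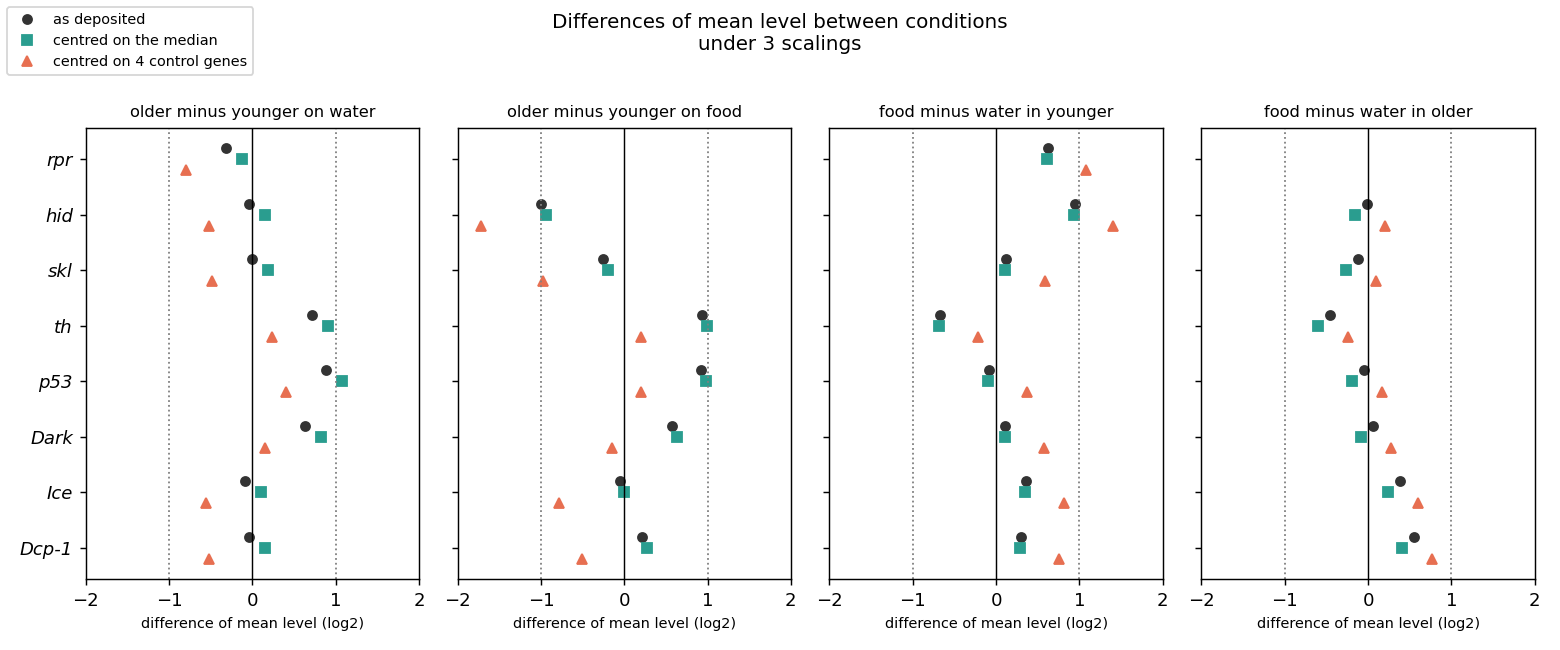
Difference of mean level (log2, x axis) for each of the 8 genes in 4 comparisons of conditions, as deposited, centered on the median gene and centered on 4 control genes; dotted lines mark 2-fold. As deposited, all points lie within 2-fold, and centering on the control genes takes *hid* from -0.995 to -1.72 in older minus younger flies on food.

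Food at 4 hr was then set against water at 2 hr within each age. In younger flies 1.96% of 12100 genes differed by more than 1 on the log2 scale and 8.98% by more than 1.5-fold. None of the 8 genes passed the first limit, and 3 of 8 passed the second. These were *hid* (0.94 higher on food), *rpr* (0.62 higher) and *th* (-0.68, lower on food). The difference of *hid* was larger in size than that of 97.7% of genes, that of *th* than 93.9% and that of *rpr* than 92.3%. The value of *rpr* rests on levels near the lowest listed, above only 1.67% of genes in younger water and 4.59% in younger food. Thus *hid*, for an antagonist of DIAP1, stood higher on food while the gene for DIAP1 stood lower. The antagonist genes *skl* and *grim* differed little (0.12 and 0.08). The same directions were found with each of the 3 other scalings. Centered on the control genes, *hid* and *th* came to 1.40 and -0.22, where 93.7% of all genes were higher on food. That scaling shifted all genes by 0.46 and the others by -0.009. These shifts are smaller than both differences, so they could not change either direction.

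In the same comparison, *Yp3* was 1.78 and *Lsp2* 1.45 higher on food than on water in younger flies, and *Yp1* and *Yp2* were listed in younger food and not in younger water. The part of other tissue in the higher level of *hid* and *rpr* was not tested.

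The same comparison was made in older flies. By the limit of 2-fold 3.15% of 11589 genes differed between older food and older water, and 18.4% by the limit of 1.5-fold, but none of the 7 cell death genes listed in both tables passed either one. *hid* differed by -0.02 and *th* by -0.46, so *th* was lower on food at both ages. Centered on the median gene, *hid* differed by -0.16. Only when centered on the control genes was *hid* higher on food (0.20), as were 85.4% of all genes under that scaling. With that centering *th* differed by -0.25. The difference of *Dcp-1* (0.55 higher on food) was the largest in size of these 7, followed by *th* and *Ice* (0.39 higher). Whether the difference between the diets itself differs with age was not tested, as it needs values per library.

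The pattern of *th* over the 4 conditions was shared by many genes. After each gene was centered on its own mean, the 3 genes with the smallest root mean square difference from *th*, among 11456, were *CG32369* (0.019), *RpL23* (0.020) and *Cyp6a14* (0.029). *RpL32* lay at 0.049, closer than all but 0.14% of genes, and 648 genes (5.66%) lay within 0.2. *ninaE*, the rhodopsin gene taken as the photoreceptor marker, lay at 0.043, with 0.096% of genes closer. It was 0.72 and 0.94 higher in older flies on water and food, and differed by -0.59 and -0.37 between food and water in younger and older flies. The part of photoreceptors in the levels of *th* was not tested. The likeness rests on 4 points that share the normalization of their tables.

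By the Release 6 annotation, which was used only for names, order and lengths, *hid*, *grim*, *rpr* and *skl* lie in this order on chromosome arm 3L, all on the same strand. *grim* encodes a further antagonist of DIAP1. No protein-coding gene lies between *rpr* and *skl*, and 4 besides *grim* and *rpr* lie between *hid* and *skl*, of which 3 were listed in the tables.

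*grim* had mean levels of 1.27 on water and 1.35 on food in younger flies and 0.27 in older water, and like *rpr* it was not listed in older food. It was thus 1.00 lower in older than in younger flies on water. *CG13700*, the next listed gene on the *hid* side of *grim*, and *CG5103* were 2.89 and 2.50 lower in older flies on water, and 2.22 and 1.84 lower on food, while *CheA75a* was 0.54 and 0.73 higher. *skl*, at the other end of the stretch, differed by -0.01 on water and -0.25 on food. *rpr* was 0.32 lower in older flies on water. On water, *skl* and *hid* thus stood nearly level between the ages as deposited, but at -0.49 and -0.52 when centered on the control genes.

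Of the 8 genes, *th*, *p53*, *Dark* and *Dcp-1* overlap another annotated gene on the opposite strand. The library kit does not mark the strand, so reads from the overlapping parts cannot be told apart. *rpr*, *hid*, *skl* and *Ice* overlap no annotated gene.

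A further 33 genes of the pathway were taken from a list by role, of which 31 were listed in all 4 tables, *grim* in 3 and the caspase gene *Strica* in none. Between older and younger flies on water, 4 of 32 passed the limit of 2-fold, 1 higher and 3 lower in older flies. On food 5 of 31 did, 2 higher and 3 lower. Both shares lie below the background of 21.4% and 24.1%. Between food and water 0 of 32 passed in younger flies and 1 of 31 in older flies, beside 1.96% and 3.15% of all genes.

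The genes past 2-fold that stood higher in older flies were both further effector caspase genes. *Damm* had mean levels of 5.36 on water and 4.76 on food in younger flies and 6.47 and 6.52 in older flies, a difference of 1.12 on water and 1.76 on food. *Decay* was 1.32 higher in older flies on food, at 6.26 against 4.94, and stood at 5.76 against 5.32 on water. As deposited, *Ice* and *Dcp-1*, of the same class, differed by at most 0.22 in size between the ages on each diet. When centered on the control genes, *Damm* was 0.64 higher on water and 1.03 on food and *Decay* 0.60 higher on food but 0.03 lower on water. The same centering took *Ice* to -0.56 on water and -0.78 on food and *Dcp-1* to -0.51 on both, so which of these genes differ with age rests on the scaling.

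The initiator caspase genes went apart. *Dronc*, whose product is activated on Dark, had mean levels of 4.27 on water and 4.64 on food in younger flies, and 3.69 and 3.72 in older flies. *Dredd*, whose product acts in the Imd immune pathway, had 4.10 and 4.34 in younger flies and 4.57 and 4.87 in older flies. *Dronc* was thus lower in older flies, while *Dredd* was higher as deposited but -0.01 on water and -0.20 on food when centered on the control genes. Neither passed the limit of 2-fold as deposited.

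Among the other IAP genes, *Bruce*, which encodes a very large IAP, ranged from 8.28 in younger water to 8.79 in older food, and *Diap2*, which acts in Imd signaling, from 6.80 in younger food to 7.09 in older water. *Det* ranged from 1.46 in older water to 2.24 in older food. The log2 ratio of *th* to *Bruce* ran from -0.87 in younger food to 0.72 in older water. Of the antagonists, *Jafrac2* was 1.15 lower in older than in younger flies on water (4.17 against 5.32), and *HtrA2*, a mitochondrial protease, ranged only from 4.81 to 5.25.

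The genes of the list that were past 2-fold and lower in older flies on food were both cytochrome c genes and *NimC4*. On water they were *Cyt-c-d*, *Jafrac2* and *grim*. *grim* only just passed (-1.002), with a level in older water above 0.592% of genes. Centered on the median gene, *Jafrac2* (-0.96) and *grim* (-0.81) stood inside the limit. *Cyt-c-d*, which in flies is needed for the caspase activity of maturing sperm, had mean levels of 6.48 on water and 6.53 on food in younger flies and 4.12 and 4.65 in older flies, a difference of -2.36 on water and -1.88 on food. The testis marker *Mst98Cb* was 2.61 and 1.96 lower in the same comparisons, and its part in the result was not tested. *Cyt-c-p*, the cytochrome c of the respiratory chain, was 1.23 lower on food (8.81 against 10.05). The muscle marker *Mhc* was 2.56 lower there, and the part of muscle was not tested either. *EndoG*, a mitochondrial nuclease, ranged only from 2.78 to 3.14.

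*NimC4* encodes the receptor SIMU, with which phagocytes take up dead cells. It stood at 4.52 on water and 5.05 on food in younger flies and at 4.65 on water in older flies, but at 3.11 in older food, so that table alone was low, by 1.53 against older water and 1.93 against younger food. The other engulfment genes did not share this. *drpr*, the engulfment receptor Draper, ranged from 6.96 in younger food to 7.96 in older water, *crq* from 7.16 to 7.57, *mbc* from 6.67 to 7.47 and *Ced-12* from 4.35 to 4.91. The hemocyte markers *Hml*, *NimC1* and *eater* summed to 219 CPM in older food and 310 in older water, and to 208 and 176 in younger flies on water and food. *Hml* made up most of each sum (200 CPM in older food). *Hml* and *NimC1* were highest in older water and lowest in younger food. *eater* was instead highest in younger food (3.49) and lowest in older food (3.01).

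Of the genes upstream of the caspases, all 4 DNA damage kinase genes were higher on food than on water at both ages, within 2-fold. So were 55.6% of all genes in younger and 66.4% in older flies, and 23 of 32 and 23 of 31 pathway genes. Among the kinase genes was *lok*, which encodes the kinase that acts on p53, with 2.50 and 2.89 in younger flies on water and food. *mei-41*, the ATR kinase gene, ranged from 2.48 in older water to 3.05 in older food, and *tefu*, which encodes the ATM kinase of flies, from 4.29 to 4.97. *grp*, the checkpoint kinase 1 gene, ranged from 4.58 to 5.15. *Tango7*, named *eIF3m* in the Release 6 annotation, has a product that acts with the apoptosome. It ranged from 7.47 in younger food to 8.26 in older water. As deposited it was 0.71 higher in older flies on food, but it differed by -0.015 when centered on the control genes. The TNF ligand gene *egr* ranged from 4.87 to 5.37, and its receptor genes *wgn* and *grnd* from 5.21 to 5.56 and from 4.33 to 5.03. The Bcl-2 family genes *Debcl* and *Buffy* ranged from 4.54 to 5.15 and from 3.97 to 4.31.

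**Figure D4:**
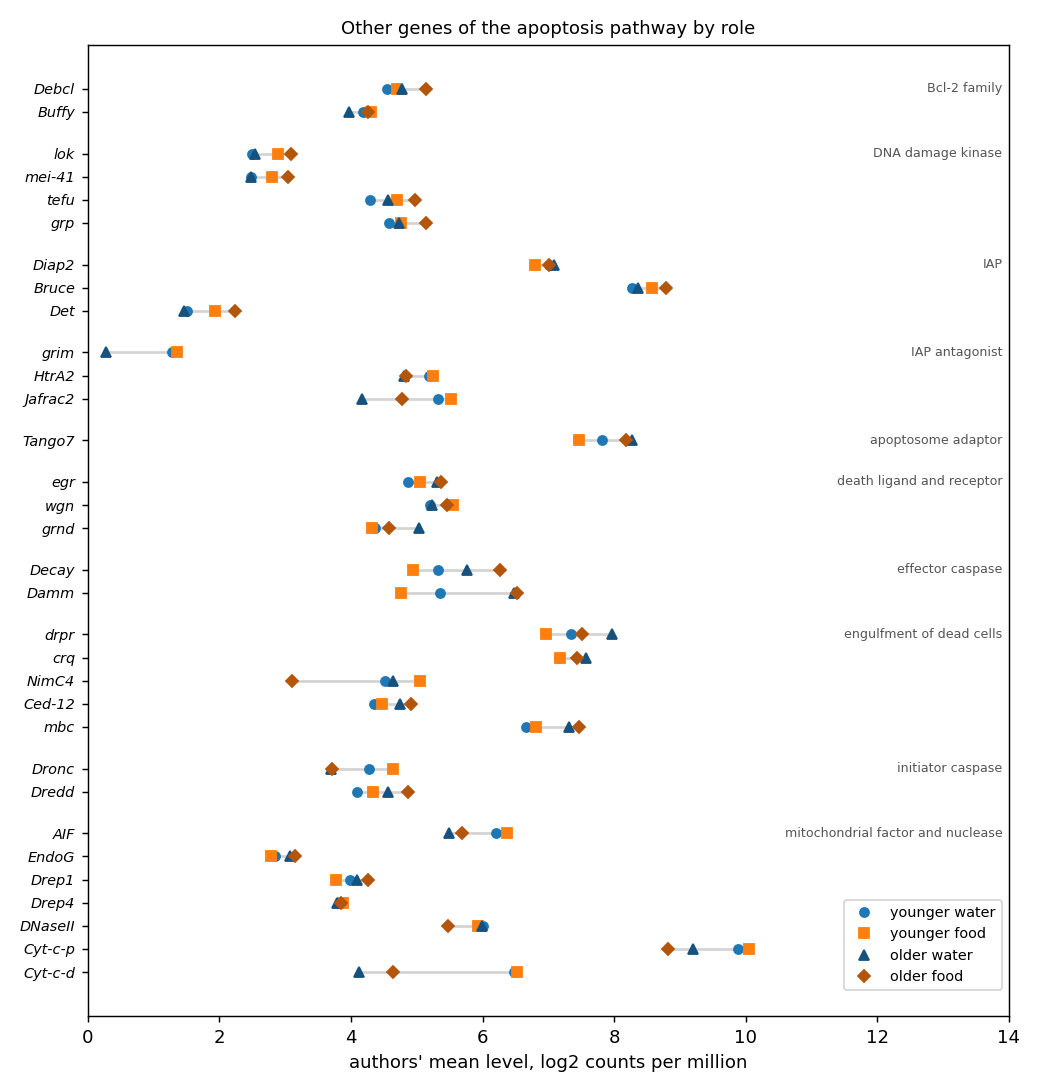
Mean level (log2 CPM, x axis) of the 32 further pathway genes listed in at least 1 table, grouped by role, with 1 point per condition and a grey line over the range. *Cyt-c-d*, *NimC4* and *Damm* have the widest ranges, 2.41, 1.93 and 1.76.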

How the data were processed

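Whole-fly mRNA was sequenced in 24 libraries. Per the labels and the study's methods, the authors used Skewer for trimming, STAR 2.4.2a for alignment and RSEM 1.2.22 for expected counts per gene. The authors filtered out low and empty values and ran edgeR 3.10.5 on the rest. The submitters' processing notes name the build dm3, and the annotation and the filter threshold are not given in the sources used here. In each of 4 deposited tables, the authors give a mean level per gene (logCPM, on the log2 scale) over 6 libraries, which was used. The log2 fold changes, likelihood ratio statistics, p-values and FDRs of injured against uninjured flies in the same tables are the authors' own comparisons and were not used or printed. The table of older water has 292 empty rows, which were left out. With 1 mean per condition, levels and their differences were described and not tested, and depth and replicate spread are unknown.

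The 8 genes, the lists and the limits were chosen with earlier results of these data known. The text names the 8 genes, the other pathway genes past 1 on the log2 scale, unlisted, or highest or lowest in their role, and the 3 genes most like *th*. The remaining pathway genes, the markers with values and the neighbors of *grim* were named after their values were seen. Names and lengths came from Release 6 (Ensembl 115), whose build differs from that of the tables, so no coordinates are given. Percentiles are shares of the genes in a table with a lower level. The counting of genes past a limit was tested on simulated data with planted shifts and no noise, which checks the counting step only. Python 3.11.15, numpy 2.4.6, pandas 2.3.3 and matplotlib 3.10.9 were used.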

Additional observations from a re-analysis of the deposited data

How the results depend on the processing

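As deposited, 0 of the 8 cell death genes passed 2-fold in any of the 4 comparisons. Of all genes, 21.4% and 24.1% did between the ages and 1.96% and 3.15% between the diets. At 1.5-fold, 3 passed between older and younger flies on water, 3 on food and 3 between food and water in younger flies. The shares of all genes in these 3 comparisons were 37.4%, 43.9% and 8.98%. Centered on the median gene, 1 passed between the ages on water, beside 22.9% of all genes. Centered on the control genes, 1 passed between the ages on food and 2 between the diets in younger flies, beside 31.1% and 6.68% of all genes under that scaling. Without the 100 highest genes, a setting chosen after seeing the data, 1 passed between the ages on food, *hid* at -1.03, beside 23.9% of all genes. A minimum level of 1 in both tables can only remove genes, so the counts of 0 as deposited could not change under it. For the other pathway genes it took the count between the ages on water from 4 to 3. For the 33 other pathway genes, the count between the ages on water was 4 as deposited, 2 centered on the median and 6 on the control genes, and on food 5, 5 and 9. The shares of all genes were 21.4%, 22.9% and 24.8% on water and 24.1%, 24.6% and 31.1% on food. At 1.5-fold, 9 and 10 pathway genes passed between the ages, beside 37.4% and 43.9% of all genes. Between the diets 1 and 3 pathway genes passed, beside 8.98% and 18.4% of all genes. Of 30 differences of single genes, 6 changed sign when centered on the median, 6 when centered on the control genes and 0 without the 100 highest genes. With the shortest transcript, 8 of 31 levels per length moved, those of *hid* and *p53*. Percentiles moved by at most 4.94 points among the genes listed in all tables and 4.87 among genes with a level of at least 1. Both measures of likeness to *th* named the same 3 genes. No paired analysis was possible because the tables used hold 1 mean per condition, and for the same reason replicates were not left out and no interval could be given.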
